A study of Ailuropoda melanoleuca with 25 samples.

Results

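BACL LB GPiPSC libraries were compared with LB GPiPSC libraries. GPiPSC are giant panda (Ailuropoda melanoleuca) induced pluripotent stem cells, reprogrammed from primary fibroblasts (PF) with episomal vectors that do not integrate into the genome. The members were chosen by sample title and make up 5 of the 25 RNA sequencing libraries of the study, namely 2 of BACL LB GPiPSC and 3 of LB GPiPSC. Both groups carry LB in their labels and differ there by BACL alone. What BACL and LB stand for is not given in the sources used here, so BACL is used below only as the name of a condition. The labels give no clone, passage, sex or age and do not state whether a replicate is a culture of its own. The p-values therefore cover only the variation among the libraries, part or all of which may be technical.

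BACL-CHIR99021, BACL control, XR GPiPSC and XR PF, with 2 libraries each, served as further points of comparison. The labels do not say whether BACL-CHIR99021 adds or omits CHIR99021, nor which line the BACL control cells came from. As background, pluripotent cells are held in an undifferentiated state by the growth factors and kinase inhibitors of their medium, and a change of medium can move the same cells between states of pluripotency with different transcriptomes. CHIR99021 inhibits glycogen synthase kinase and thereby activates WNT signalling, a pathway that in mouse stem cells favours self-renewal and in human ones can drive differentiation. Which of these applies to giant panda cells was not measured here.

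The deposited tables list 22924 gene models by assembly identifiers that the files do not pair with gene names, and 0 of them matched the RefSeq table of assembly ASM200744v3. Pluripotency and fibroblast marker genes could therefore not be checked by name, and the data are described as groups of models. In their place, whole profiles were compared. In log2 CPM (counts scaled to library size by TMM) BACL LB GPiPSC correlated at 0.932 to 0.934 with XR GPiPSC and at 0.694 to 0.711 with the 4 PF libraries. The BACL LB GPiPSC libraries held 12946209 and 11952623 estimated counts, and the LB GPiPSC libraries 11605859, 12388764 and 11774120. A floor of 3 counts lay at 0.187 to 0.202 CPM in these 5 libraries.

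The 3 LB GPiPSC libraries were not alike. Replicates 1 and 2 correlated at 0.975 with each other and at 0.962 with replicate 3, which correlated at 0.981 with both XR GPiPSC libraries. The library labelled LB GPiPSC replicate 3 was thus closer to XR GPiPSC than to its own group, and whether its label is right is in doubt and was not tested. Both BACL LB GPiPSC libraries correlated at 0.995 with each other. Against LB GPiPSC they correlated highest with replicate 1 (0.964 and 0.963), then replicate 2 (0.958 and 0.957), then replicate 3 (0.946 and 0.945). Their correlation with BACL control was higher than with any LB GPiPSC library, at 0.966 to 0.967, and that with BACL-CHIR99021 was 0.924 to 0.925. The main counts and fold changes below are therefore given with and without LB GPiPSC replicate 3. The sums and level classes are given for all libraries.

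Far more models were lower than higher in BACL LB GPiPSC. Of 17225 models tested, 1636 (9.5%) were called, where 309 (1.79%) were higher and 1327 (7.70%) lower at an adjusted p under 0.05 in edgeR's quasi-likelihood test, so that 81.1% of the calls were lower. By fitted fold change, the changes downward were also the larger ones. Fold changes of models at or near 0 counts in BACL LB GPiPSC are not firm sizes. Such models are included in the counts and the median that follow. Over 2-fold higher were 194 models (1.13%) and over 2-fold lower 1245 (7.23%), and over 8-fold the counts were 36 and 505. The median log2 fold change was 1.32 among the models called higher and -2.46 among those called lower, against -0.06 over all models. In bulk RNA, fewer cells expressing a model and less RNA of it per cell cannot be told apart.

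Without LB GPiPSC replicate 3, 1334 models (7.76%) were called, 236 (1.37%) higher and 1098 (6.38%) lower, so that 82.3% of the calls were lower. Over 2-fold higher were 185 (1.08%) and over 2-fold lower 1052 (6.12%). Of the 309 models called higher with all libraries, 191 were called higher again, and of the 1327 called lower, 981 were. The 5 libraries of the groups did not overlap in 309 of the 309 models called higher and in 1284 of the 1327 called lower, where 22.9% and 25.9% of all tested models were above or below without overlap. None of the 1636 called models took the opposite sign without LB GPiPSC replicate 3. For the models without overlap this was largely fixed in advance, because leaving out an LB GPiPSC library keeps the order of the groups. The counts rest on both BACL LB GPiPSC libraries. Without replicate 1 of that group 84 models were higher and 371 lower, and without replicate 2, 89 and 385, where the lone library was assumed to vary like the other groups. With only the 5 libraries in the fit, 617 were higher and 1073 lower, and 63.5% of the calls were lower. DESeq2 called 464 higher and 1621 lower.

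**Figure D1:**
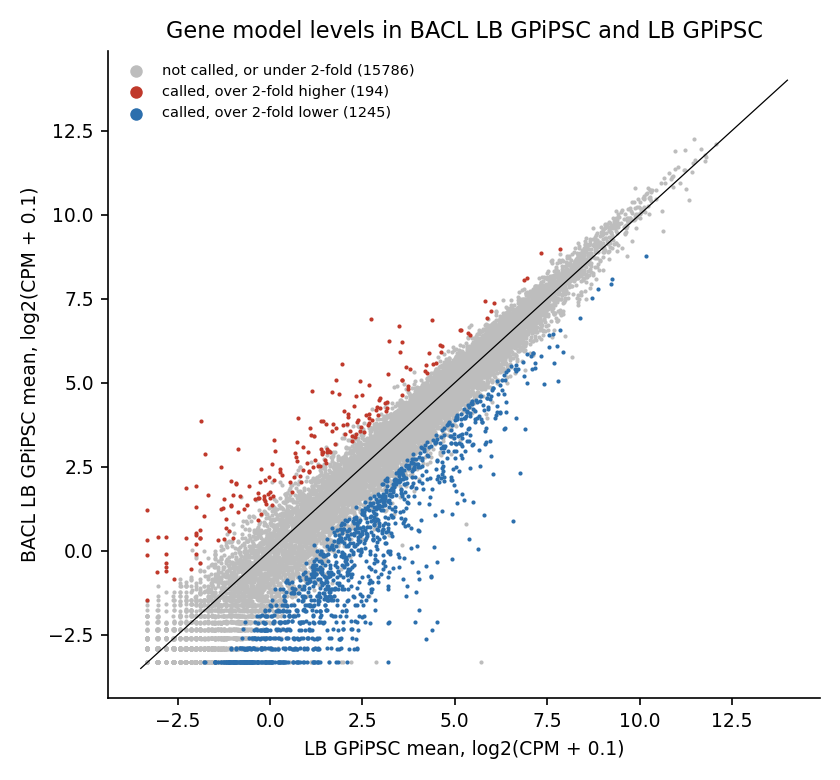
Mean TMM-scaled level of each of 17225 gene models in BACL LB GPiPSC (vertical axis, log2(CPM + 0.1), n = 2) and LB GPiPSC (horizontal axis, n = 3), with the line of equal levels. The 1245 models over 2-fold lower in BACL LB GPiPSC (blue) lie mostly at low to middle levels, and the 194 over 2-fold higher (red) are fewer.

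The models lowered in BACL LB GPiPSC mostly stood at low levels there. TPM, which scales counts to model length and library total, was used to compare levels between models. Of the 1245 models over 2-fold lower, 812 (65.2%) had a mean under 1 TPM in BACL LB GPiPSC, against 333 (26.7%) in LB GPiPSC. Their median was 0.337 TPM in BACL LB GPiPSC and 2.69 TPM in LB GPiPSC, where all tested models had medians of 7.52 and 9.29 TPM. Most were thus already below the typical model in LB GPiPSC, though 288 of them (23.1%) stood at 10 TPM or more there. The number of models with at least 1 TPM was 13124 and 13107 in BACL LB GPiPSC and 13781, 13837 and 13994 in LB GPiPSC, at similar sequencing depths.

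Few models with a mean of at least 1 CPM in 1 group were at 0 in the other. Models below that mean were not counted here, and some of those called lower were also at 0 in BACL LB GPiPSC. At 0 counts in both BACL LB GPiPSC libraries, with a mean of at least 1 CPM in LB GPiPSC, were 50 models, 33 of them with counts in each LB GPiPSC library. The reverse, 0 counts in every LB GPiPSC library and at least 1 CPM in BACL LB GPiPSC, held for 2 models. Without LB GPiPSC replicate 3 these numbers were 40 and 2. Of the 50 models, 39 had counts in both BACL-CHIR99021 libraries and 28 in both BACL control libraries. An estimated count of 0 can also arise where reads are assigned to a near-identical model, and 75 tested models, 12 of them among those called lower, shared their length and all counts with another.

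Summed over the 1245 lowered models, RNA amounted to 5022 and 4849 TPM in BACL LB GPiPSC, against 19062, 17773 and 21636 TPM in LB GPiPSC. Over the 194 raised models it amounted to 6112 and 6166 TPM in BACL LB GPiPSC, against 2490, 2001 and 2202 TPM in LB GPiPSC. The groups do not overlap in either sum, which the choice of the models fixes. Single models carried much of these sums, since the top 10 held 31.3% to 34.7% of the lowered list's RNA and 55.5% to 62.1% of the raised list's in the 5 libraries.

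The same lists can be read in libraries that did not choose them. The lowered models summed to 20872 and 20470 TPM in BACL-CHIR99021, to 6750.5 and 6742 TPM in BACL control, and to 22322.5 and 23561 TPM in XR GPiPSC. In fibroblasts these sums were higher, at 43739 and 27172 TPM in LB PF and 50168 and 45326 TPM in XR PF. The median lowered model did not stand clearly higher there. It was at 4.09 and 2.70 CPM in LB PF and at 4.52 and 4.33 CPM in XR PF. In LB GPiPSC it was at 3.33, 3.95 and 4.65 CPM, and in XR GPiPSC at 4.98 and 5.13 CPM. The raised models summed to 4257 and 4166 TPM in BACL-CHIR99021, 4475 and 4476 TPM in BACL control, 2395 and 2454 TPM in XR GPiPSC, and 4697 to 7244 TPM in the 4 PF libraries. BACL control thus lay on the side of BACL LB GPiPSC for both lists, while BACL-CHIR99021 lay near LB and XR GPiPSC for the lowered list and near BACL control for the raised one.

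**Figure D2:**
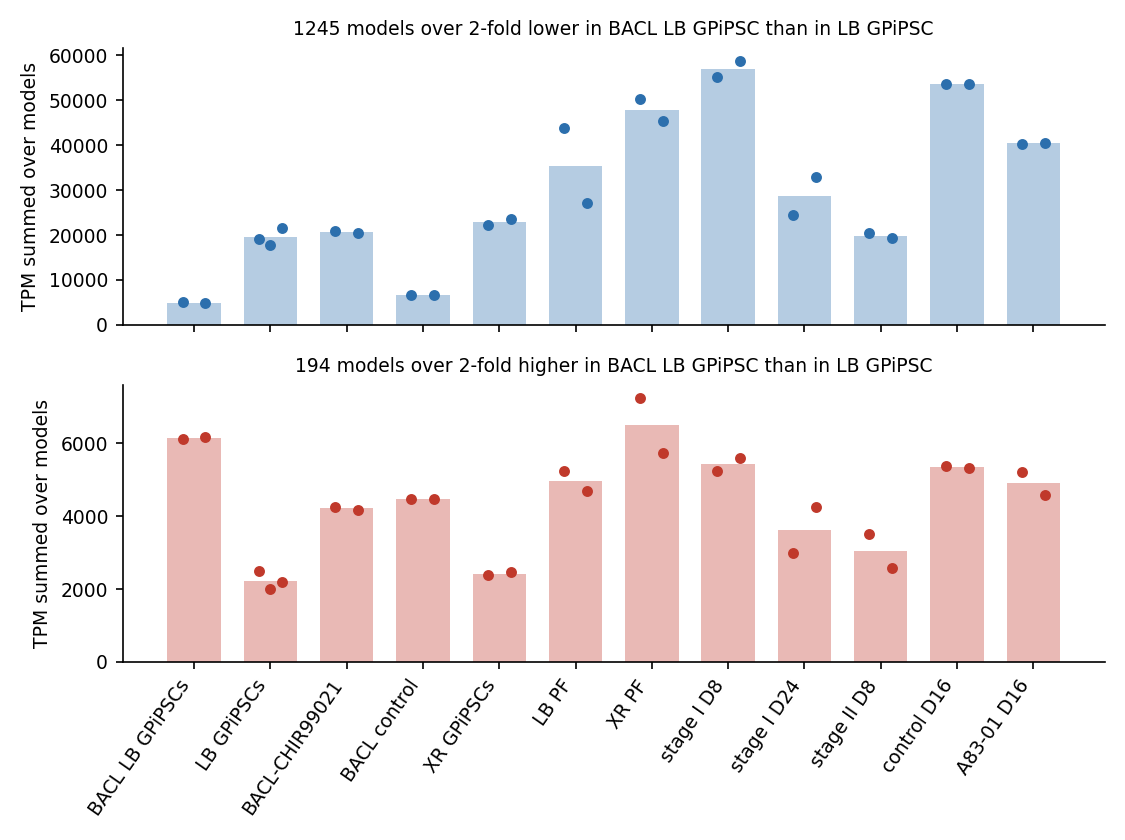
TPM summed over the models over 2-fold lower (top) and over 2-fold higher (bottom) in BACL LB GPiPSC than in LB GPiPSC, for each library of the 12 groups (points, with bars at the group mean). For the lowered models BACL LB GPiPSC (5022 and 4849 TPM) and BACL control (6750.5 and 6742 TPM) stand below every other library. The separation of BACL LB GPiPSC from LB GPiPSC is fixed by the choice of models.

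Among single models, 116 raised and 299 lowered ones met the rule for naming (a call with and without LB GPiPSC replicate 3, no overlap between libraries, a mean of at least 10 CPM in the higher group and over 3 counts in every library of both groups). The 2 with the largest fold change per direction follow. The files give no function for any of them.

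The model evm.model.HIC_ASM_2.1266, on scaffold HIC_ASM_2 with a coding length of 798 bases, was the most raised by this rule. It stood at 117 and 122 CPM in BACL LB GPiPSC, against 6.16, 9.78 and 3.79 CPM in LB GPiPSC. The lowest BACL LB GPiPSC library was thus far above the highest LB GPiPSC library. The log2 fold change was 4.18 ± 0.51 (SE; edgeR adjusted p = 6.87e-05), and 3.92 without LB GPiPSC replicate 3 (adjusted p = 0.000327). It was at 0.380 and 0.586 CPM in BACL-CHIR99021, at 55.5 and 61.1 CPM in BACL control and at 4.06 and 4.79 CPM in XR GPiPSC, and had 0 counts in all 4 PF libraries. Among the GPiPSC and BACL libraries it was thus high in BACL LB GPiPSC and BACL control and low in BACL-CHIR99021. Outside them it was also high in stage I D24, at 130 and 82.0 CPM.

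The model evm.model.HIC_ASM_3.1518, of 849 bases, was at 27.7 and 25.7 CPM in BACL LB GPiPSC and at 1.81, 3.18 and 1.35 CPM in LB GPiPSC. Its log2 fold change was 3.65 ± 0.36 (SE; edgeR adjusted p = 5.06e-06), and 3.43 without LB GPiPSC replicate 3. In BACL-CHIR99021 it was at 0.759 and 0.996 CPM, in BACL control at 60.6 and 55.6 CPM and in XR GPiPSC at 1.87 and 2.27 CPM. Like the model before it, it was high in both BACL LB GPiPSC and BACL control libraries. It was also counted in fibroblasts, at 16.4 and 9.09 CPM in LB PF and 5.82 and 5.57 CPM in XR PF.

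The most lowered model by this rule was evm.model.HIC_ASM_0.798, of 843 bases. It was at 1.81 and 1.68 CPM in BACL LB GPiPSC, against 88.8, 167 and 32.0 CPM in LB GPiPSC. The LB GPiPSC libraries were widely spread, with replicate 3 lowest, and none came near the BACL LB GPiPSC libraries. The log2 fold change was -5.77 ± 0.62 (SE; edgeR adjusted p = 9.74e-06), and -6.17 without LB GPiPSC replicate 3. It was at 50.4 and 48.7 CPM in BACL-CHIR99021, at 3.48 and 3.23 CPM in BACL control and at 51.8 and 58.3 CPM in XR GPiPSC. PF libraries held 27.1 and 27.8 CPM (LB) and 62.5 and 108 CPM (XR), so the low level was seen in BACL LB GPiPSC and BACL control.

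The model evm.model.HIC_ASM_2.924, a very long one of 19280 bases, was at 0.935 and 0.941 CPM in BACL LB GPiPSC and at 5.96, 54.2 and 88.0 CPM in LB GPiPSC. Scaled to its length it was low in both groups, at 0.027 TPM in each BACL LB GPiPSC library and at 0.177, 1.47 and 2.66 TPM in LB GPiPSC. Here LB GPiPSC replicate 1 was by far the closest to BACL LB GPiPSC. The log2 fold change was -5.70 ± 0.82 (SE; edgeR adjusted p = 0.000188), and -4.96 without LB GPiPSC replicate 3. It was at 24.9 and 24.1 CPM in BACL-CHIR99021, 20.2 and 18.3 CPM in BACL control and 72.9 and 79.9 CPM in XR GPiPSC. The model was called lower in BACL control than in XR GPiPSC, with a log2 fold change of -1.99 ± 0.67 (SE; edgeR adjusted p = 0.0469). Unlike the other lowered model, it was not called between BACL-CHIR99021 and BACL control, with a log2 fold change of 0.34 ± 0.65 (SE; edgeR adjusted p = 0.800).

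**Figure D3:**
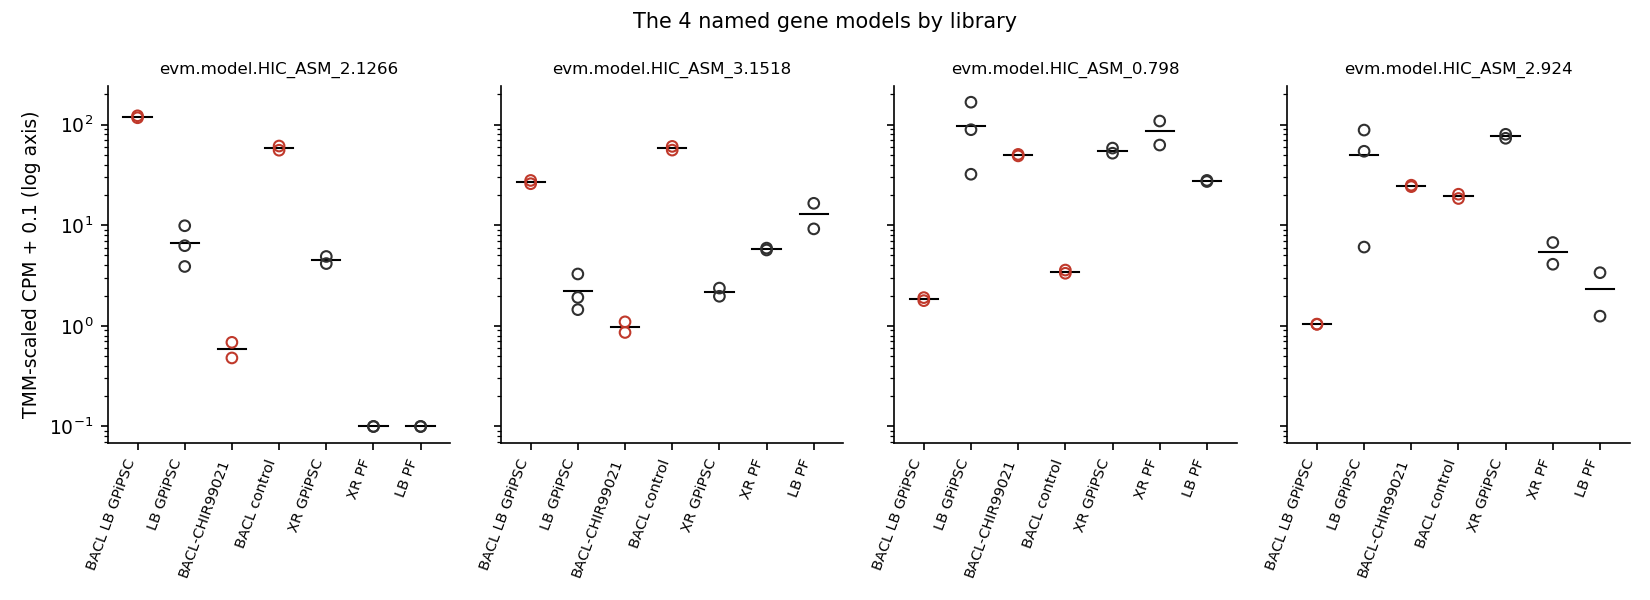
TMM-scaled CPM plus 0.1 (log axis) of the 4 named gene models in each library (open circles, red where the label holds BACL) of 7 groups, with the group mean as a line. The 2 models at the left are higher and the 2 at the right lower in BACL LB GPiPSC than in LB GPiPSC, and 3 of the 4 lie on the same side in BACL control and on the other side in BACL-CHIR99021. The remaining model, evm.model.HIC_ASM_2.924, is also lower in BACL control than in XR GPiPSC. It was not called between BACL-CHIR99021 and BACL control.

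Whether the changed models also differed between other cells with and without BACL in their label was read from BACL control against XR GPiPSC, which share no library with the comparison above by their labels. Of the 1245 lowered models, 693 (55.7%) were also lower in BACL control and 32 (2.57%) higher, where 11.3% and 6.14% of all tested models were. Of the 194 raised models, 106 (54.6%) were also higher and 5 (2.58%) lower. The median log2 fold change was -1.67 for the lowered models and 1.53 for the raised ones, against -0.03 over all models. Counting only changes over 2-fold, both comparisons shared 680 lowered models, 54.6% of the list from BACL LB GPiPSC and 680 of the 1791 from BACL control (10.4% of all tested models). They shared 103 raised models, 53.1% of the list from BACL LB GPiPSC and 14.4% of the 713 from BACL control (4.14% of all tested models).

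Because LB GPiPSC replicate 3 lay close to XR GPiPSC, these counts were repeated without it. Of the 1052 models then over 2-fold lower, 572 (54.4%) were lower in BACL control, where 11.9% of all tested models were. Of the 185 over 2-fold higher, 99 (53.5%) were higher, where 7.04% of all tested models were. Across all tested models, which are not independent replicates, the log2 fold changes of the 2 comparisons correlated at 0.45 (Pearson), and at 0.40 without replicate 3. The 2 comparisons were not the same in size of change. The difference between the 2 log2 fold changes, BACL LB GPiPSC against LB GPiPSC minus BACL control against XR GPiPSC, was itself called in 309 models (1.79%), positive in 111 and negative in 198. Of these, 138 were among the 1245 lowered and 17 among the 194 raised models, lists chosen on the first term of that difference, so nothing is read from these counts. That count was 444 without LB GPiPSC replicate 3, and 73 and 71 without BACL LB GPiPSC replicates 1 and 2. None of the 4 named models was among them (edgeR adjusted p = 0.0646 for evm.model.HIC_ASM_2.924 and 0.354 to 0.970 for the others).

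BACL-CHIR99021 was compared with BACL control in the same way. Of the 1245 models lowered in BACL LB GPiPSC, 509 (40.9%) were higher in BACL-CHIR99021 and 45 (3.61%) lower, where 11.7% and 4.43% of all tested models were. Their median log2 fold change was 1.13, against 0.00 over all models. Of the 194 raised models, 52 (26.8%) were lower in BACL-CHIR99021 and 19 (9.79%) higher, with a median of -0.27. Without LB GPiPSC replicate 3, 458 of 1052 lowered models (43.5%) were higher and 51 of 185 raised models (27.6%) lower. Of all tested models, 11.9% were higher and 5.23% lower in that setting. The median of the raised models was then -0.49. That median was -0.15 and -0.69 without LB GPiPSC replicates 1 and 2, and -0.87 and -0.82 without BACL LB GPiPSC replicates 1 and 2. This comparison and the one before share the BACL control libraries, so their values are not independent of each other.

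**Figure D4:**
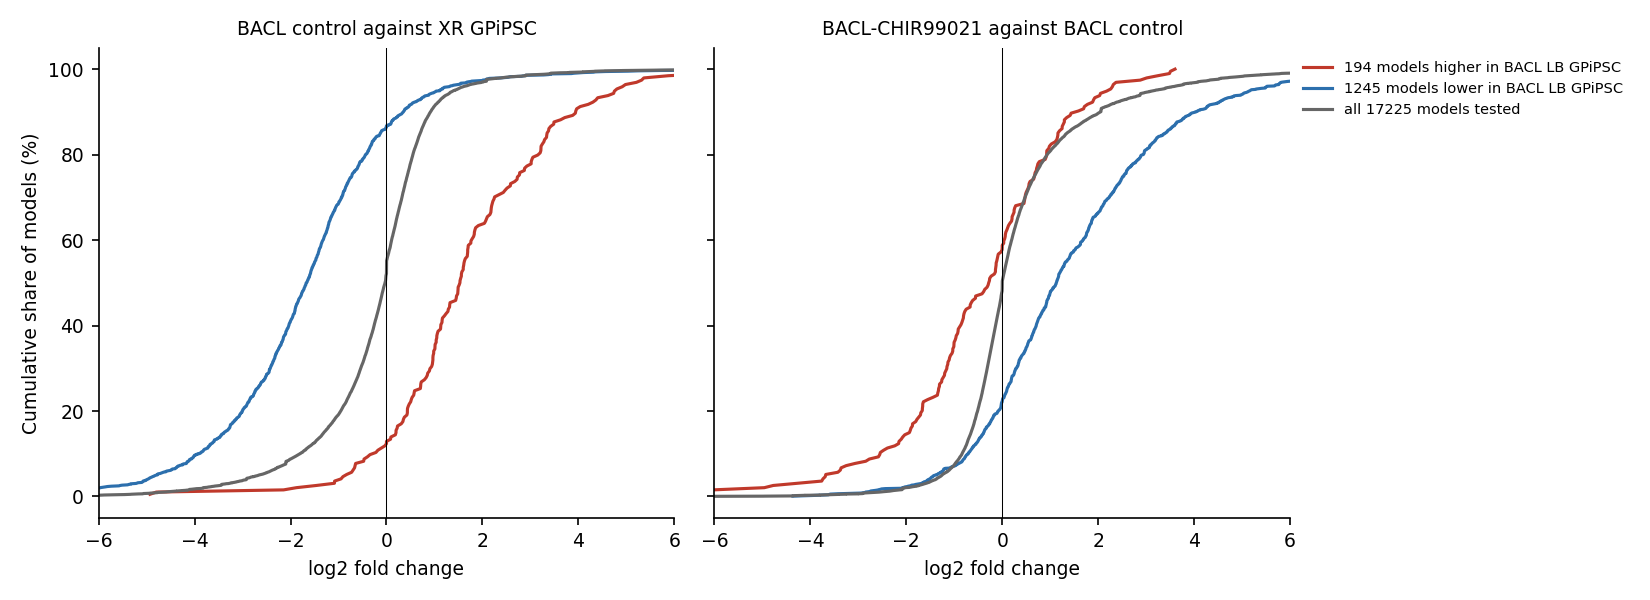
Cumulative share of models (vertical axis, %) by log2 fold change in BACL control against XR GPiPSC (left) and in BACL-CHIR99021 against BACL control (right). The models lowered in BACL LB GPiPSC (blue) had medians of -1.67 and 1.13 in the 2 panels, the raised ones (red) of 1.53 and -0.27, and all 17225 models (grey) of -0.03 and 0.00.

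Models that separate pluripotent cells from fibroblasts were taken from XR GPiPSC against XR PF, libraries that played no part in the comparison. Of the 4043 models over 2-fold higher in XR GPiPSC than in XR PF (23.5% of all tested), 57 (1.41%) were higher and 523 (12.9%) lower in BACL LB GPiPSC. Their median log2 fold change was -0.25. Of the 4406 models over 2-fold lower in XR GPiPSC (25.6% of all tested), which are the fibroblast side, 108 (2.45%) were higher and 454 (10.3%) lower, with a median of -0.14. Of the 8776 models in neither list, 144 (1.64%) were higher and 350 (3.99%) lower, with a median of 0.01. Lowered models were thus found on both sides, each at a larger share than the 7.70% of all models. Both lists hold only models already called in another comparison of the same fit. How much of the larger shares comes from such models being more easily called was not tested.

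Read the other way, 510 of the 1245 lowered models were over 2-fold higher in XR GPiPSC than in XR PF, 420 over 2-fold lower and 315 neither. Of the 194 raised models, 46 were on the pluripotent side, 83 on the fibroblast side and 65 on neither. The 185 models raised without LB GPiPSC replicate 3 were more evenly split. Of these, 56 were on the pluripotent side, 69 on the fibroblast side and 60 on neither. Without LB GPiPSC replicate 3, 10.1% of the pluripotent-side models and 9.23% of the fibroblast-side models were called lower, with medians of -0.14 and -0.12. Called higher were 1.51% and 1.79%. Of all tested models, 6.38% were lower and 1.37% higher in that setting. The fibroblast-side median was -0.034 without LB GPiPSC replicate 1 and -0.071 without replicate 2.

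The share of lowered models depended on level and length. By quartile of mean level over the 25 libraries, 9.61%, 11.1%, 6.25% and 3.90% were called lower from the lowest to the highest quartile, and 1.18%, 2.32%, 1.39% and 2.28% higher. The median log2 fold change ran from -0.55 in the lowest quartile to 0.08 in the highest. By quartile of coding length, 5.24%, 7.72%, 8.26% and 9.60% were lower from the shortest to the longest, whereas 1.65% to 1.95% were higher in each quartile. The median coding length was 1338 bases for the 1245 lowered models, 1057.5 for the 194 raised ones and 1171 for all tested. Longer models give more counts at the same level and are more easily called, and the part of that in these shares was not tested.

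Lowered models were often neighbours. Of the 1245, 424 (34.1%) had another lowered model next to them among the tested models of their scaffold, where 13.7% of all tested models had one. The longest run was of 6 lowered models in a row on scaffold HIC_ASM_7, numbered 1640 to 1656. Of the 194 raised models, 37 (19.1%) had a raised neighbour, against 2.17% of all models, and the longest run was of 4 on scaffold HIC_ASM_1, numbered 397 to 401. Neighbours include members of tandem families whose reads may be divided between them, and this was not tested.

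Blocks of consecutive models along some scaffolds stood apart in single LB GPiPSC libraries, and BACL LB GPiPSC lay nearer to the other LB GPiPSC libraries there. Models with a mean log2 CPM above 2 were taken in windows of 30 along the 21 scaffolds, and each library's median log2 ratio to the median of 11 GPiPSC and BACL libraries, 6 of which carry BACL in their label, was read. A block was a run of at least 3 windows in which 1 LB GPiPSC library lay beyond both others by more than 0.3, a rule chosen after these profiles had been seen. It found 8 blocks on 5 scaffolds, 5 for replicate 3, 3 for replicate 2 and 0 for replicate 1. In 0 of the 360 windows did both BACL LB GPiPSC libraries lie beyond all LB GPiPSC libraries by that step.

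On HIC_ASM_1 the models numbered 1181 to 1860 lay at -0.01 and -0.04 in BACL LB GPiPSC and at -0.19, -0.15 and 0.38 in LB GPiPSC replicates 1, 2 and 3. The models 1955 to 2181 of that scaffold, 10 to 533 of HIC_ASM_4 and 698 to 1329 of HIC_ASM_13 had replicate 3 at 0.37 to 0.39 and BACL LB GPiPSC at or below 0.00. In these 4 blocks XR GPiPSC lay at 0.29 to 0.48, near replicate 3. BACL control lay at -0.066 to -0.003 there, so the blocks also enter BACL control against XR GPiPSC. Their part in the models shared by both comparisons was not tested. On HIC_ASM_15 the models 889 to 1344 lay at -0.30 and -0.29 in BACL LB GPiPSC and at -0.31, -0.37 and 0.14 in LB GPiPSC. There BACL-CHIR99021 lay at 0.15 and 0.17 and BACL control at 0.20 and 0.17, with replicate 3 and not with BACL LB GPiPSC.

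Replicate 2 of LB GPiPSC stood apart elsewhere. On HIC_ASM_0 the models numbered 1152 to 1585 lay at 0.01 and 0.00 in BACL LB GPiPSC and at 0.00, -0.81 and 0.05 in LB GPiPSC replicates 1, 2 and 3. Those numbered 9 to 466 lay at 0.00 in both BACL LB GPiPSC libraries and at -0.05, 0.48 and -0.05 in LB GPiPSC. On HIC_ASM_15 the models numbered 15 to 256 lay at 0.17 and 0.20 in BACL LB GPiPSC and at 0.26, -0.56 and 0.26 in LB GPiPSC. In that block BACL-CHIR99021 lay at -0.77 and -0.76 and BACL control at -0.80 and -0.82, so BACL LB GPiPSC stood with LB GPiPSC replicates 1 and 3 and not with the other BACL libraries. XR GPiPSC lay at 0.34 and 0.31 there.

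**Figure D5:**
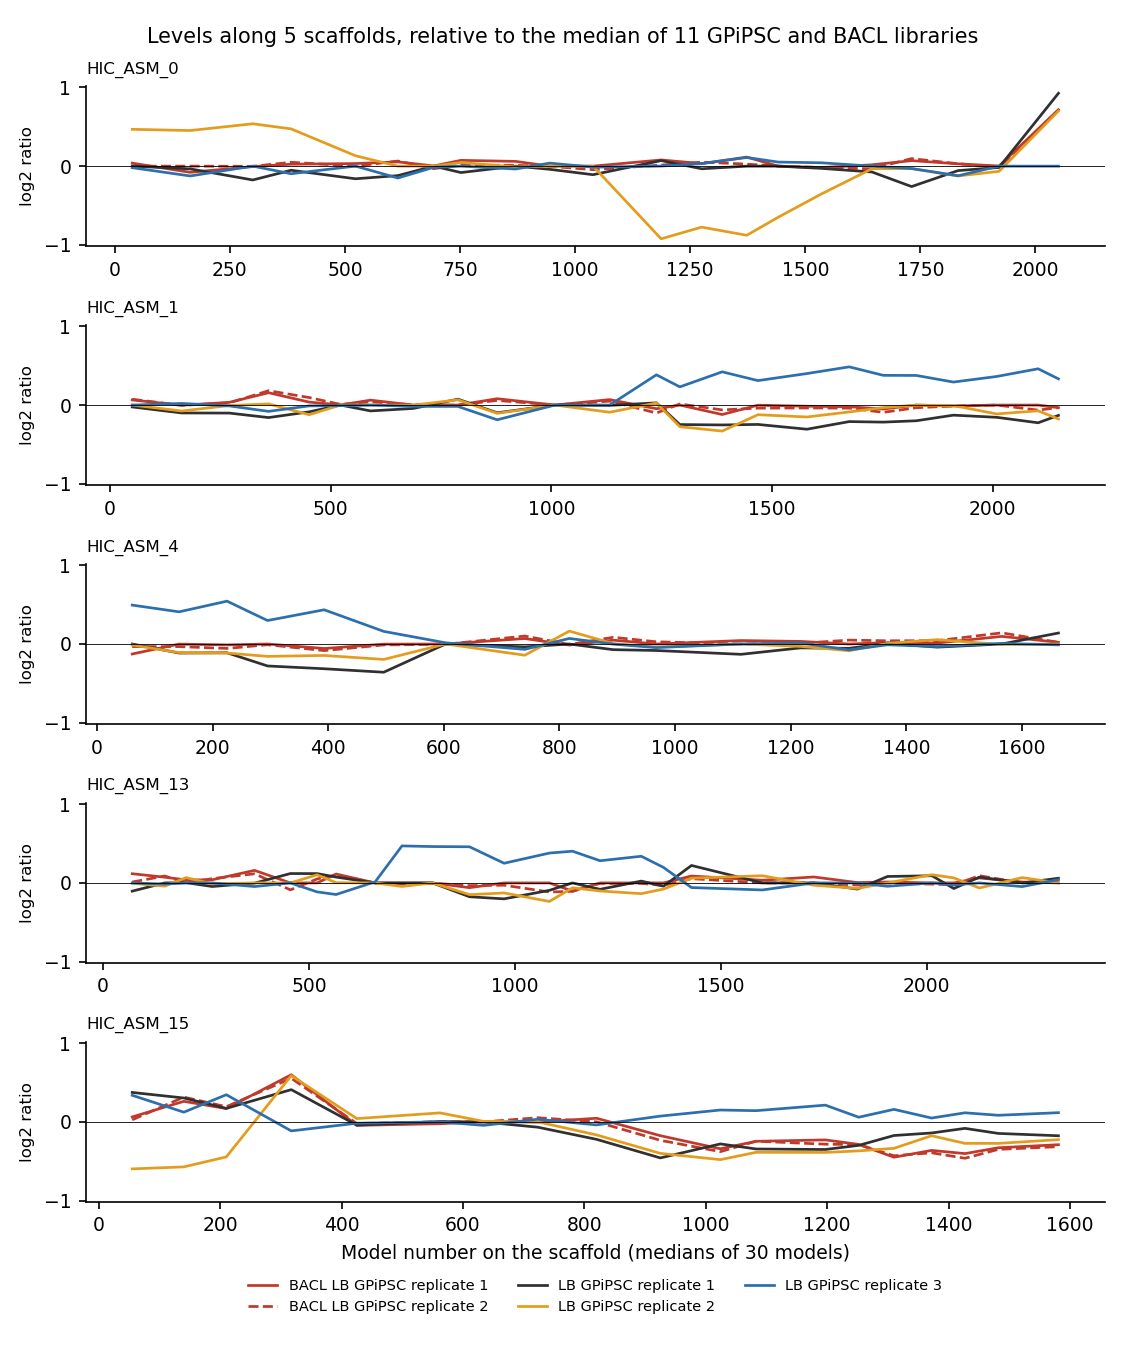
Median log2 ratio to the median of 11 GPiPSC and BACL libraries, in windows of 30 consecutive expressed models along 5 scaffolds (horizontal axis, model number), for the 2 BACL LB GPiPSC libraries (red) and LB GPiPSC replicates 1 (black), 2 (orange) and 3 (blue). Replicate 3 is above replicates 1 and 2 in blocks on HIC_ASM_1, HIC_ASM_4, HIC_ASM_13 and HIC_ASM_15. Replicate 2 is low or raised in blocks on HIC_ASM_0 and HIC_ASM_15. In these blocks BACL LB GPiPSC lies nearer to the other LB GPiPSC libraries. In the HIC_ASM_15 block of replicate 3 it lies below 0 with replicates 1 and 2, at -0.30 and -0.29.

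These blocks move with the comparison. Each was chosen because 1 LB GPiPSC library stood apart in it. Leaving that library out therefore shifts the block's median by construction, and the shifts are only descriptions. In the longer HIC_ASM_1 block the median log2 fold change of BACL LB GPiPSC against LB GPiPSC was -0.13 with all libraries and 0.11 without replicate 3. Of its 379 tested models, 37 (9.76%) were lower with all libraries and 21 (5.54%) without replicate 3, near the 7.70% and 6.38% of all models. In the HIC_ASM_4 block the medians were -0.10 and 0.14, and of its 282 tested models 31 (10.99%) and 13 (4.61%) were lower. In the HIC_ASM_0 block from 1152 to 1585 the median was 0.22, and 0.03 without LB GPiPSC replicate 2. The 8 blocks held 1965 of the tested models, of which 28 (1.42%) were called higher and 179 (9.11%) lower, close to the 1.79% and 7.70% of all tested models, and 281 of the higher and 1148 of the lower calls lay outside them. Over whole scaffolds with at least 100 tested models, medians ran from -0.15 (HIC_ASM_15) to 0.00. Without LB GPiPSC replicate 3, HIC_ASM_15 was at -0.013 and the lowest was HIC_ASM_3 at -0.073. With all libraries every one of the 21 held more lowered than raised models, with 5.61% to 10.2% lowered.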

How the data were processed

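Libraries were prepared from total RNA with an Illumina RNA kit from NEB, per the labels' protocols. Kallisto is named in the submitters' processing notes. Neither its version nor its index or the build is stated in the sources used here. The deposited estimated counts, not whole numbers, were rounded for the tests. The deposited TPM values were scaled by the authors' tool to effective length and library total.

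Groups and replicate numbers came from sample titles. One fit of all 25 libraries in 12 groups (13 residual degrees of freedom) used edgeR 4.0.16 in R 4.3.3 with filterByExpr (17225 models), TMM and robust quasi-likelihood F tests, adjusted by Benjamini-Hochberg over all models. The threshold was an adjusted p of 0.05. Alternatives used limma 3.58.1 and DESeq2 1.42.0. With 2 libraries against 3, a permutation of libraries has 10 splits and cannot pass 0.05, so list values are descriptions. The comparison, lists, blocks and naming rule were chosen with earlier results of these data known. No gene lists by symbol could be applied. In simulated counts of 17225 models for this comparison, 6%, 12%, 76% and 98% of 1.5-, 2-, 4- and 8-fold changes were recovered, 50 models each, with 6 false calls. Only models above a mean of 1 CPM were changed there. All groups otherwise had the same mean levels, and no replicate was made to stand apart as LB GPiPSC replicate 3 does. Standard errors come from the fit and include variation between libraries, and the floor of 3 counts covers counting error only. Alternatives leaving out scaffold blocks or models with identical counts, the CHIR99021 medians and the interaction contrast were added after seeing the data.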

Additional observations from a re-analysis of the deposited data

Results flagged for a closer look

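The difference between BACL LB GPiPSC and LB GPiPSC and the difference between BACL control and XR GPiPSC were themselves unequal in 309 models (edgeR interaction contrast, adjusted p under 0.05), with a positive contrast (the first log2 fold change above the second) in 111 and a negative one in 198. The count was 267 to 444 when 1 LB GPiPSC library was left out, and 73 or 71 without BACL LB GPiPSC replicate 1 or 2. The labels do not say that these comparisons are the same treatment in 2 lines.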

How the results depend on the processing

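The 4 named models kept their direction and their calls under all 14 other settings tried on them. The setting without LB GPiPSC replicate 3 was part of the naming rule, which also took the largest fold changes. That the named models kept their calls was thus partly fixed by their choice. The size of change was not kept for evm.model.HIC_ASM_2.924. Its log2 fold change, -5.70 in the report, was -1.10 with limma on log2(TPM + 1) and -3.07 on log2(TPM + 0.1). Models called higher, 309 with the settings of the report, numbered 617 with only the libraries compared in the fit and 464 with DESeq2. A test against a 2-fold change (glmTreat) called 55 higher, and 487 lower against 1327. Leaving out 1 library gave 84 to 345 higher and 371 to 1298 lower calls, and 71 to 444 models whose difference was unequal between both comparisons. It moved the median log2 fold change of the pluripotent-side models to between -0.27 and -0.14, of the fibroblast-side models to between -0.12 and -0.034, of HIC_ASM_15 to between -0.20 and -0.013 and of HIC_ASM_0 to between 0.00 and 0.025. In BACL control against XR GPiPSC it gave 1.20 to 1.96 for the raised and -1.96 to -1.54 for the lowered models, and in BACL-CHIR99021 against BACL control -0.87 to -0.15 and 0.90 to 1.39.

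In BACL-CHIR99021 against BACL control, the median of the lowered models (1.13 in the report) was 1.12 with RLE size factors, 1.22 with only the libraries compared, 1.15 with effective-length offsets, 1.14 with DESeq2, 0.80 with limma on log2(TPM + 1) and 1.07 on log2(TPM + 0.1). That of the raised models (-0.27) was -0.31 with only the libraries compared, -0.36 with offsets and -0.34 on log2(TPM + 0.1). In BACL control against XR GPiPSC, the lowered models (-1.67) had -1.62 with only the libraries compared, -1.62 with offsets, -1.61 with DESeq2 and -1.46 on log2(TPM + 1), and the raised models (1.53) had 1.42 with DESeq2, 0.93 on log2(TPM + 1) and 1.32 on log2(TPM + 0.1). HIC_ASM_0 had 0.048 with only the libraries compared, -0.059 with offsets, -0.078 on log2(TPM + 1) and -0.12 on log2(TPM + 0.1), where all models had -0.19 and the fibroblast-side models -0.21. The causes of these shifts were not tested.

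Replicate numbers do not pair the libraries by label, and same-numbered libraries of both groups had deviations correlated at -0.02. With the replicate number as a block, 190 models were higher and 1015 lower, and the medians were 1.48 and -1.59 for raised and lowered models in BACL control against XR GPiPSC, and -0.60 and 1.18 in BACL-CHIR99021 against BACL control. In the simulated counts, at this depth and number of libraries, changes of 2-fold or less were mostly not recovered.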
